A study of Rattus norvegicus with 6 samples.

Results

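The 10 genes described here, Cib2, Prl3d4, Slc30a3, Slc29a4, Mmd2, Cngb3, St8sia1, Olr59, Slc16a11 and Abcc9, were picked from 11235 named genes tested because their signal was lower in the liver of rats given TBBC, from 1.92-fold in Abcc9 to 48.8-fold in Cib2 where both groups were above background, and because they belong to none of the usual pathways of a liver response to chemicals. The values that chose them are the differences between the groups, so these are given as a description, with no test. Liver total RNA of 6 male Sprague-Dawley rats, bought at 5 weeks of age, was measured on 1-colour (Cy3) arrays, with an array for each animal. Of these, 3 rats were dosed with corn oil and are called vehicle here. The other 3 were dosed with TBBC, a thiobis-linked tert-butyl cresol used as an antioxidant, at 300 mg/kg/day. The series text gives 28 days as the time of measurement, whereas the treatment protocol gives 9 weeks of dosing. No allele or other agent is named for either group, and whole liver was used, so fewer cells of a type and less RNA per cell cannot be told apart.

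The 10 genes share no pathway. Cib2 binds calcium and integrins and is known from the sensory hair cells of the inner ear. Prl3d4 belongs to the placental branch of the prolactin hormone family. Slc30a3 loads zinc into synaptic vesicles, Slc29a4 carries monoamines and nucleosides across the plasma membrane, and Slc16a11 is a monocarboxylate carrier known from liver. Mmd2 is a membrane protein of the progestin and adipoQ receptor (PAQR) family. Cngb3 is the modulatory subunit of the cyclic nucleotide gated channel of cone photoreceptors, Olr59 is an olfactory receptor, St8sia1 adds a sialic acid to the ganglioside GM3 to make GD3, and Abcc9 is a regulatory subunit of ATP-sensitive potassium channels. Several are thus best known from tissues other than liver.

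The 10 genes had 21 probes on the array, and 17 of these passed a filter, under which every array of 1 group or the other had to be well above background. All values below are log2 signal minus the 75th percentile of the array, so that 0 is the level of that percentile. Replicates are called animals 1 to 3 of their group. A gene is first described by its probe with the highest mean signal over the 6 arrays. The 3 vehicle arrays lay above the 3 TBBC arrays at that probe for all 10 genes, against 18.8% of the 29326 features tested, and 9 of the 10 were also at least 2-fold lower, against 1.55% of features. Nothing is read from these shares, since the genes were picked on this difference. The median difference was -3.72 for the 10 genes, also with the 3 that are only bounded set at their bounds, and -0.06 for all features.

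**Figure D1:**
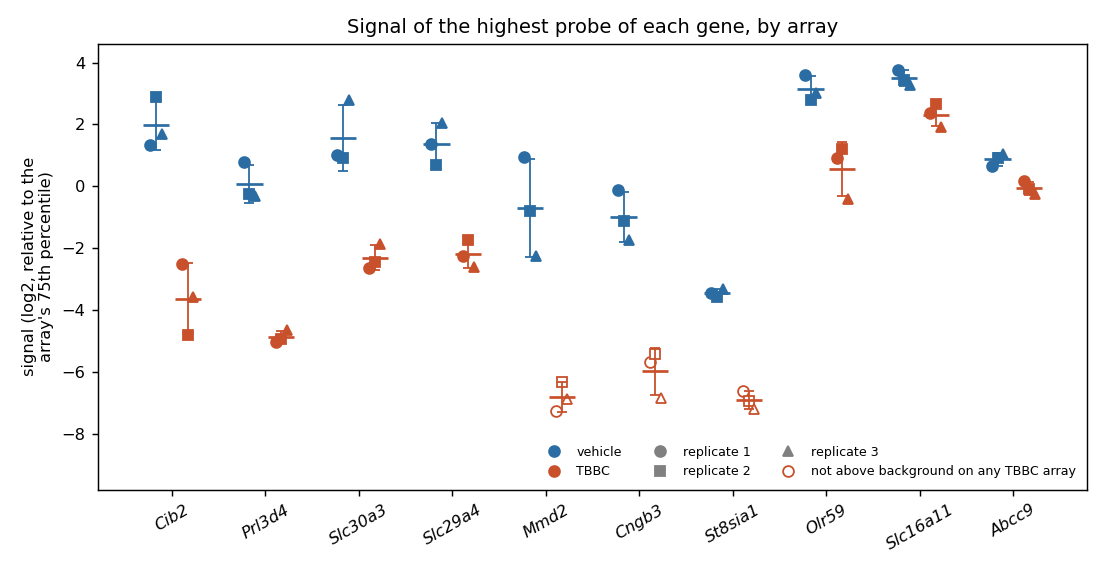
Log2 signal relative to the 75th percentile of the array (y axis) for the probe with the highest mean signal of each of the 10 genes (x axis). Each symbol is 1 animal, horizontal lines are group means and error bars the SD over 3 animals; open symbols mark genes not well above background on any TBBC array. The groups are apart in all 10 genes, by 4.32 log2 units in Prl3d4 and by 0.48 in Abcc9.

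The RefSeq table of the assembly GRCr8 gave a promoter of 300 bases, from 250 before the start site to 50 after it, for 9 of the 10 genes. The 4 that held a motif searched for are shown, because they are the promoters with a match. The motifs were AGGTCA, a hexamer bound by nuclear receptors, TGACNNNGC, the core of the antioxidant response element, CACGTG, the E-box, TATAAA, the TATA box, and TGACGTCA, the cAMP response element, on both strands. Capitals mark the motif, and runs read 5′ to 3′ on the strand of the gene.
Slc29a4, chr12:16988289-16988588, minus strand: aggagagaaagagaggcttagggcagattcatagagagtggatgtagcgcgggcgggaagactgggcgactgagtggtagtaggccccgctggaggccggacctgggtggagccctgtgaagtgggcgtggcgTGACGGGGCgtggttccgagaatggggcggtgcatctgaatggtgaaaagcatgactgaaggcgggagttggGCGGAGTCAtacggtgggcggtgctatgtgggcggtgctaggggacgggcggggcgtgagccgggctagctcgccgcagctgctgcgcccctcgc
Slc30a3, chr6:30997164-30997463, plus strand: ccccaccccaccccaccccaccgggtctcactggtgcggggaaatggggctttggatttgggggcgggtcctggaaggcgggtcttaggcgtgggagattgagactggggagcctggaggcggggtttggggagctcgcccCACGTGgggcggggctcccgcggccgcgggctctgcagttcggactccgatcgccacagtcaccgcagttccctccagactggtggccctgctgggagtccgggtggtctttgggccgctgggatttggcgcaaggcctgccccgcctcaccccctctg
Slc16a11, chr10:55427705-55428004, plus strand: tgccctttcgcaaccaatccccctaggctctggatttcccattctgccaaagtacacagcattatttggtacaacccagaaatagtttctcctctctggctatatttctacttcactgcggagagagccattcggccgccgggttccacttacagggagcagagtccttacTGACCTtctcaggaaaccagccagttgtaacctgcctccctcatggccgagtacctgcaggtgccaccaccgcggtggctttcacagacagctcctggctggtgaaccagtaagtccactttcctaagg
Olr59, chr1:166610854-166611153, minus strand: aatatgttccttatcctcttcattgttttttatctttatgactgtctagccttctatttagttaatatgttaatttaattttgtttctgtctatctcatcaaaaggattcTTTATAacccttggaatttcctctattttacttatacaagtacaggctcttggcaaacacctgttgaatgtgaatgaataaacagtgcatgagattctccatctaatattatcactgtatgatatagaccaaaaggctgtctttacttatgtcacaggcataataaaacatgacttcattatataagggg
The Slc29a4 promoter held the antioxidant response core at 2 places, bases 134 to 142 on the plus strand of the run and bases 206 to 214 on the other strand. This core occurred in 1 of the 9 promoters and in 12.1% of all 33469 promoters of that length. Slc30a3 held the E-box (6.42% of all promoters), Slc16a11 the AGGTCA hexamer on the other strand (16.2%) and Olr59 TATAAA on the other strand (14.2%). The cAMP response element (1.83%) was in 0 of the 9. No motif was thus shared by any pair of the 9 promoters. A match is a run of letters and not a measured binding site. Base composition also differed among them: G and C made up 31% of the Olr59 promoter, 42.0% of that of Prl3d4 and 53.3% of that of Slc16a11, and 65.7% to 70.3% of the other 6. The median over all promoters was 51.7%.

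Cib2, the calcium and integrin binding protein, had a single probe, and it was well above background on every array. Its level was 1.35, 2.90 and 1.68 in vehicle animals 1 to 3 and -2.52, -4.80 and -3.58 in TBBC animals 1 to 3. All vehicle animals were high, and TBBC replicate 2 was the lowest of all. The linear signal of Cib2 there was 22.54, and the lowest signal well above background on that array was 15.21. The group means were 1.98 ± 0.82 and -3.63 ± 1.14 (SD, n = 3), a difference of -5.61, or 48.8-fold. With normexp background correction, which adds 50 to every signal, the difference was -4.38. No other probe was there to set beside it.

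For 5 of the 9 genes with more than 1 probe, the fall was seen at 1 probe and not, or hardly, at the others. These were Mmd2, Cngb3, Prl3d4, Slc30a3 and Slc29a4, and where every probe was well above background, the differences lay 3.21 log2 units apart in Slc30a3 and 3.16 in Slc29a4. Some of the other probes were at background and could not have shown a fall.

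Mmd2, of the PAQR family, was high in vehicle liver at 1 of its 2 probes. Its probe A_64_P095005 read 0.95, -0.81 and -2.24 in vehicle animals 1 to 3 and -7.26, -6.31 and -6.88 in TBBC animals 1 to 3. The vehicle animals were spread over 3.19 log2 units, with replicate 1 the highest, and no TBBC array was well above background. The signal was at least 22.2-fold lower with TBBC, a bound that sets the vehicle mean against the higher of the dim signal and the lowest signal well above background on each array. The measured difference was -6.12, and it was -5.29 without vehicle replicate 1, -6.89 without vehicle replicate 3 and -2.87 with normexp. The other Mmd2 probe, A_44_P217648, was well above background on vehicle replicate 1 and TBBC replicate 2 alone. Its groups overlapped, with a difference of -0.32 (-5.01 ± 0.66 in vehicle, -5.33 ± 0.53 with TBBC).

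Cngb3, the channel subunit of cones, was alike. Its probe A_64_P030110 read -0.11, -1.12 and -1.73 in vehicle animals 1 to 3, and -5.67, -5.41 and -6.85 in TBBC animals 1 to 3. All vehicle arrays were well above background, replicate 1 the highest, and no TBBC array was. The signal was at least 18.2-fold lower, with a measured difference of -4.99 (-2.22 with normexp). The second probe, A_44_P456760, was well above background on TBBC replicate 1 and on no vehicle array. Its groups overlapped, at -6.39 ± 0.79 in vehicle and -6.01 ± 1.0 with TBBC.

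Prl3d4, the placental lactogen relative, was well above background on all 6 arrays at probe A_44_P391196. The level was 0.77, -0.26 and -0.32 in vehicle animals 1 to 3 and -5.03, -4.92 and -4.64 in TBBC animals 1 to 3. The groups did not overlap, and vehicle replicate 1 was again the highest. The difference was -4.93, or 30.5-fold, and -3.02 with normexp. In TBBC animals 1 to 3 the linear signals were 18.82, 20.65 and 25.57. The lowest signals well above background on those arrays were 15.94, 15.21 and 21.70, so the TBBC side lay near the limit of measurement. Probe A_64_P165771 was not well above background on any array, so it gave no fold.

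Slc30a3, the zinc transporter of synaptic vesicles, was well above background on all arrays at both probes. Probe A_64_P017363 read 1.01, 0.90 and 2.79 in vehicle animals 1 to 3 and -2.64, -2.43 and -1.86 in TBBC animals 1 to 3. Vehicle replicate 3 was the highest, and the difference of -3.88 (14.7-fold) was -3.27 (9.63-fold) without it. Probe A_44_P306524 read -2.01, -1.88 and -1.17 in vehicle and -2.26, -2.47 and -2.34 with TBBC. Here too the groups did not overlap and vehicle replicate 3 was the highest, but the difference was -0.67, or 1.59-fold.

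Slc29a4, the monoamine and nucleoside transporter, had 3 probes, each well above background on every array. Probe A_64_P105202 read 1.36, 0.69 and 2.04 in vehicle animals 1 to 3 and -2.24, -1.75 and -2.62 in TBBC animals 1 to 3, a difference of -3.56 (11.8-fold; -2.89 with normexp). Probe A_64_P105206 read -2.02, -1.89 and -2.08 in vehicle and -2.45, -2.61 and -2.78 with TBBC, a difference of -0.61. Probe A_43_P19548 read -2.80, -2.56 and -2.75 in vehicle and -3.12, -2.94 and -3.24 with TBBC, a difference of -0.40. The groups did not overlap at any of the 3, and the fall was 11.8-fold at the first, 1.53-fold at the second and 1.32-fold at the third. Which part of the transcript each probe covers is not given in the sources used here.

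**Figure D2:**
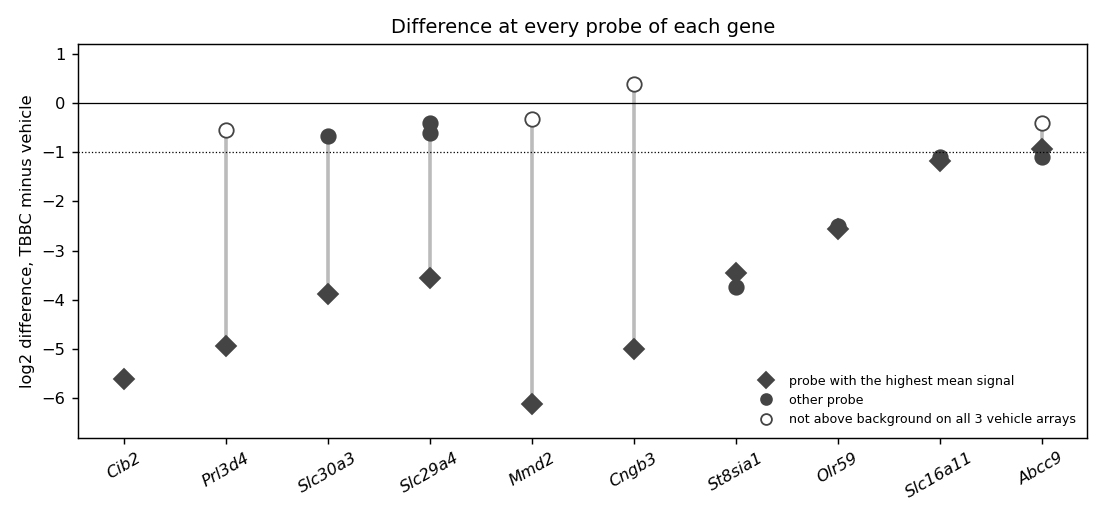
Log2 difference, TBBC minus vehicle (y axis), at every probe of each of the 10 genes (x axis), with a grey line between probes of a gene. Diamonds mark the probe with the highest mean signal, open circles probes not well above background on all 3 vehicle arrays, and the dotted line a 2-fold fall. Measured values are drawn, also for Mmd2, Cngb3 and St8sia1, which are only bounds. Probes of Slc30a3 lie at -3.88 and -0.67, whereas both probes of Olr59 lie near -2.5.

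Disagreement of this size was rare on the arrays. Of 5562 genes with at least 2 probes that passed the filter, 12 (0.216%) had probes more than 2 log2 units apart, and the median range between probes was 0.18. Of the 6 described genes with at least 2 such probes, 2 were that far apart, Slc30a3 and Slc29a4. Among the 141 other genes with a probe at least 2-fold lower, 5 were (3.55%). These shares are a description, since the gene's largest difference also chose the 10.

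At the other genes with several probes the values were close. St8sia1, which makes the ganglioside GD3, read -3.46, -3.58 and -3.33 in vehicle animals 1 to 3 and -6.61, -6.94 and -7.19 in TBBC animals 1 to 3 at probe A_64_P016003. At probe A_43_P11574 it read -3.56, -3.62 and -3.59 in vehicle and -7.58, -7.65 and -6.76 with TBBC. The vehicle signal was low and steady, with an SD of 0.13 and 0.03, and no TBBC array was well above background at either probe. St8sia1 was therefore at least 3.29-fold lower at the first probe and at least 3.00-fold at the second. The measured differences of -3.46 and -3.74 were -1.03 and -1.07 with normexp.

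Olr59, the olfactory receptor, was lower by a like amount at both of its probes. Probe A_64_P072633 read 3.61, 2.80 and 3.03 in vehicle animals 1 to 3 and 0.93, 1.21 and -0.42 in TBBC animals 1 to 3, a difference of -2.57 (5.96-fold). Probe A_44_P100068 read 1.98, 1.18 and 1.51 in vehicle and -0.61, -0.30 and -1.92 with TBBC, a difference of -2.50 (5.65-fold). On both, vehicle replicate 1 was the highest, TBBC replicate 3 the lowest, and the groups did not overlap. All 12 readings were well above background.

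Slc16a11, the monocarboxylate carrier, had a small difference at both of its probes. Probe A_44_P375616 read 3.77, 3.44 and 3.26 in vehicle animals 1 to 3 and 2.38, 2.66 and 1.91 in TBBC animals 1 to 3, a difference of -1.18 (2.26-fold). The second probe differed by -1.1 (3.31 ± 0.20 in vehicle, 2.21 ± 0.44 with TBBC). The groups did not overlap at either probe, by 0.60 and 0.48 log2 units.

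Abcc9, the potassium channel subunit, read 0.65, 0.92 and 1.06 in vehicle animals 1 to 3 and 0.17, -0.10 and -0.25 in TBBC animals 1 to 3 at probe A_44_P455479. The difference was -0.94 (1.92-fold), and the groups did not overlap. Probe A_64_P022185, dimmer but well above background throughout, differed by -1.09 (-3.29 ± 0.42 in vehicle, -4.38 ± 0.26 with TBBC). The third probe was well above background on none of the 6 arrays. In size Slc16a11 and Abcc9 were not strong fallers: in the order of measured falls they took places 425 and 707 of 29326 features. Of the other genes measured on both sides, Cib2 took place 5, Prl3d4 8, Slc30a3 10, Slc29a4 20 and Olr59 43. The place of Prl3d4 rests on TBBC readings near the limit of measurement, and no place is given to the 3 that are only bounded.

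The animals of a group differed among themselves more in these genes than in most. The median SD over the vehicle animals was 0.65 for the 10 genes and 0.19 for all features, and 5 of the 10 had a vehicle SD above the 95th percentile of all features (0.65). Vehicle replicate 1 was the highest vehicle array for 5 genes, Prl3d4, Mmd2, Cngb3, Olr59 and Slc16a11. Vehicle replicate 3 was the highest for 4, Slc30a3, Slc29a4, St8sia1 and Abcc9, and vehicle replicate 2 for Cib2.

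For each gene, the named gene with the nearest profile over the 6 arrays was sought among 11225 others, by the root mean square distance after each profile was set to a vehicle mean of 0. Fgf21, the liver hormone, was nearest to Slc29a4 (0.45) and read 2.44, 1.5 and 3.11 in vehicle, with replicate 3 the highest, and -0.79, -1.60 and -2.11 with TBBC. Tenm2, a teneurin of the cell surface, was nearest to Slc30a3 (0.66). It was well above background on 2 of the 3 TBBC arrays, and its vehicle SD was 0.15, against 1.06 in Slc30a3.

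Of the remaining genes, Olr59 was nearest to the serine synthesis enzyme Phgdh (0.37), Slc16a11 to the triokinase Tkfc (0.12) and Abcc9 to the transcription cofactor Zmiz2 (0.11). For Cib2 the nearest gene, Acnat2, was 1.5 log2 units away, with a difference of -3.6 against -5.61 in Cib2. Acnat2 read 4.21, 4.15 and 4.01 in vehicle and 1.78, -0.77 and 0.56 with TBBC. As in Cib2, TBBC replicate 2 was its lowest array and TBBC replicate 1 the highest of the treated. Its vehicle SD was 0.1, against 0.82 in Cib2. Among the 7 genes well above background on all arrays, the nearest pairs were Slc16a11 with Abcc9 (0.37) and Slc30a3 with Slc29a4 (0.59). No distance is given for St8sia1, whose TBBC readings were at background. Nearness is a description over 6 arrays and carries no test.

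**Figure D3:**
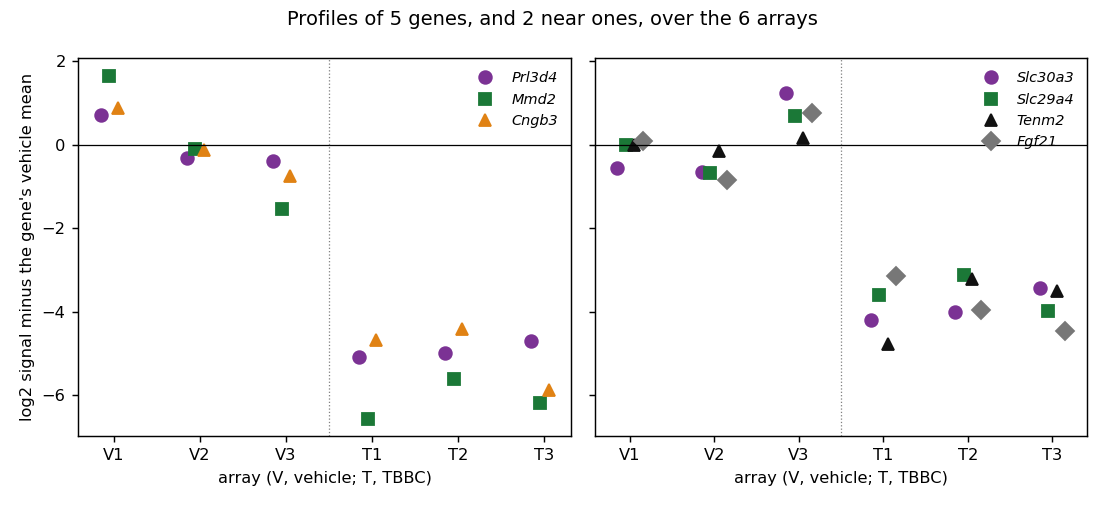
Log2 signal minus the gene's own vehicle mean (y axis) on the 3 vehicle arrays (V1 to V3) and the 3 TBBC arrays (T1 to T3). On the left are Prl3d4, Mmd2 and Cngb3, and vehicle replicate 1 is the highest in all 3 (TBBC readings of Mmd2 and Cngb3 were not well above background). On the right Slc30a3 and Slc29a4 are set beside Tenm2 and Fgf21. Vehicle replicate 3 is the highest in all 4, but the vehicle animals hardly differ in Tenm2 (SD 0.15). Tenm2 was well above background on 2 of the 3 TBBC arrays.

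Relatives and pathway partners of the 10 genes were listed by family or pathway and were tested. The lists were drawn up with earlier results of these data known. Of 212 listed, 200 had a probe and 104 passed the filter. By limma, at an adjusted p (Benjamini-Hochberg, every feature) under 0.05, 1 rose, 2 fell and 101 did not pass, beside 3.08% of all features past the threshold (1.68% higher, 1.4% lower). At an unadjusted p under 0.05 there were 27, or 26.0%, beside 23.0% of all features. The median difference of the relatives was 0.01.

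Of 8 tested PAQR relatives of Mmd2, 1 fell: Paqr9, a membrane receptor of the family, at -1.29 ± 0.19 (SE, n = 3 per group, limma adjusted p = 0.0271). It read 1.14, 1.18 and 1.33 in vehicle and 0.28, -0.40 and -0.10 with TBBC, and its 2 probes gave -1.45 and -1.29. The call was lost in 8 of 18 alternative settings (highest adjusted p 0.0896), among them leaving out vehicle replicate 1, 2 or 3 or TBBC replicate 2 or 3. Paqr4 differed by -1.23 ± 0.35 but did not pass (limma adjusted p = 0.114). Mmd, the nearest relative of Mmd2, differed by -0.08 ± 0.34, and the adiponectin receptor Adipor1 by 0.07 ± 0.11. The median of the 8 was -0.06.

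Of 20 tested genes of ganglioside synthesis and breakdown, around St8sia1, 1 fell: Neu3, the sialidase of the plasma membrane that cleaves gangliosides, at -1.26 ± 0.15 (limma adjusted p = 0.0171). It read -1.70, -1.61 and -1.35 in vehicle and -2.91, -2.92 and -2.62 with TBBC. The call was lost in 5 of 18 settings (highest adjusted p 0.0724), among them leaving out vehicle replicate 1 or 2 or TBBC replicate 1 or 2. St3gal5, which makes the GM3 that St8sia1 uses, differed by 0.14 ± 0.20, and B4galnt1, the next enzyme of the branch, by -0.08 ± 0.22.

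Of 9 tested relatives of Abcc9 in the ABCC family and the potassium channel, 1 rose: Abcc3, which carries glucuronides out of hepatocytes, at 4.96 ± 0.21 (limma adjusted p = 8.41e-04). It read -2.92, -2.31 and -2.22 in vehicle and 2.33, 2.56 and 2.54 with TBBC. Kcnj8, the pore that Abcc9 pairs with in blood vessels, differed by -0.01 ± 0.19 (adjusted p = 0.987), and Abcc8, the other regulatory subunit, by -1.02 ± 0.38 (adjusted p = 0.182).

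In the other lists 0 members passed by limma. Of 21 zinc transporters, metallothioneins and their regulator, 7 had an unadjusted p under 0.05, beside 23.0% of all features. Differences in that list ran from -2.13 ± 1.13 in Slc30a2, of the family of Slc30a3, to 1.57 ± 0.45 in Slc39a5 (limma adjusted p = 0.306 and 0.114). The metallothioneins Mt1 and Mt2A, which bind zinc, differed by 0.05 ± 0.12 and -0.04 ± 0.11, and the sign of each turned with some settings. Of 13 genes of nucleoside and monoamine handling 3 had an unadjusted p under 0.05, and the median difference of that list was 0.03. Of 17 monocarboxylate genes 4 did. Differences in that list ran from -0.88 ± 0.20 in Slc16a1 to 1.92 ± 0.44 in Slc16a5 (limma adjusted p = 0.0708 and 0.0727). Both are of the family of Slc16a11. The lactate dehydrogenase Ldha was at -0.26 ± 0.12 and the mitochondrial pyruvate carrier Mpc2 at -0.23 ± 0.10.

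Of 57 olfactory receptors on the array that carry an Olr name in GRCr8, other than Olr59, 10 were tested. Of these, 3 had an unadjusted p under 0.05, beside 23.0% of all features. The median difference of the 10 was -0.26, with a range of -0.49 to 1.46. Olr35, the highest of the 10, read -2.43, -1.02 and -1.88 in vehicle and -0.66, -0.09 and -0.20 with TBBC. Its difference of 1.46 ± 0.36 (limma adjusted p = 0.0863) lay on the opposite side from Olr59 and from the list median. Of the 57, 39 were on no array well above background. Of 23 prolactin family genes and their receptor on the array, 18 were not, and 2 were tested: the receptor Prlr at 2.59 ± 0.62 (adjusted p = 0.0810) and Prl6a1 at -0.43 ± 0.22. Prlr read -3.01, -1.57 and -1.14 in vehicle and -0.31, 0.79 and 1.57 with TBBC. Olr35 passed in 3 and Prlr in 2 of 18 alternative settings. The 3 tested channel relatives of Cngb3 (Hcn4 at 0.06 ± 0.12, Hcn3 at -0.14 ± 0.17) and the 1 tested relative of Cib2 (Cib1, at 0.11 ± 0.11) had 0 with an unadjusted p under 0.05.

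The neighbours of the 10 genes in the order of protein-coding genes of GRCr8 were tested next, 3 tested genes on each side, 50 in all. Untested genes were skipped, so a neighbour could lie several steps away in that order. By limma 0 passed, and 14 (28.0%) had an unadjusted p under 0.05, beside 23.0% of all features. Their median difference was -0.13, and the range ran from -1.66 to 0.98. Both ends were without a call by limma. Slc35f2, 8 steps from Cib2, differed by -1.66 ± 0.61 (adjusted p = 0.182), and Mboat1, 19 steps from Prl3d4, by 0.98 ± 0.20 (adjusted p = 0.0584). Of the 50, 1 had groups that did not overlap and was at least 2-fold lower, beside 1.55% of all features. It was Sox5, 3 steps from St8sia1 (-1.0 ± 0.25, limma adjusted p = 0.0902).

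The 6 tested neighbours of Olr59, 1 to 22 steps away, were olfactory receptors too, under Or names, and differed by -0.53 to -0.25. None of them passed (limma adjusted p from 0.0764 to 0.340). They were dim, with vehicle means of -3.96 to -1.37, against 3.15 in Olr59.

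A pair of the 10 genes lay 1 gene apart on chromosome 12, Slc29a4 and Mmd2. The gene between them, Wipi2, differed by 0.13 ± 0.15. The nearest tested genes beyond the pair, Tnrc18 and Papolb, differed by -0.24 ± 0.28 and -0.23 ± 0.24. On chromosome 4, St8sia1 and Abcc9 had 2 genes between them. Of these Cmas, which activates sialic acid for transfer, was tested and differed by 0.31 ± 0.11 (adjusted p = 0.180). Kcnj8 lies on the other side of Abcc9. Slc16a13, the carrier beside Slc16a11, differed by -0.53 ± 0.11 (adjusted p = 0.0592).

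**Figure D4:**
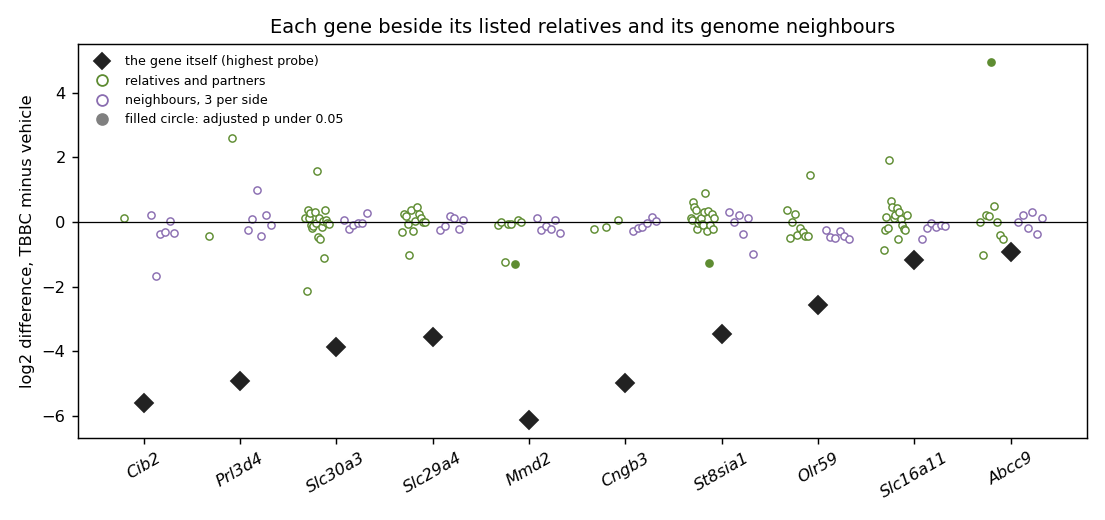
Log2 difference, TBBC minus vehicle (y axis), for each of the 10 genes (diamonds), its listed relatives and partners (left, green circles) and its 3 tested neighbours per side in gene order (right, violet circles). Filled circles have a limma adjusted p under 0.05: Abcc3 at 4.96, Paqr9 at -1.29 and Neu3 at -1.26 among relatives and no neighbour.

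The tissue was liver by its markers: all 12 hepatocyte markers were tested, and 0 passed. Of the 12, 3 had an unadjusted p under 0.05, beside 23.0% of all features. Ttr and Tf, both plasma carriers, differed by -0.03 ± 0.11 and -0.29 ± 0.12. The summed level of the list was 5895 to 6969 in vehicle and 5591 to 5742 with TBBC, lower on every TBBC array. The lowest difference was that of the lipoprotein gene Apoa1 (-1.0 ± 0.19, limma adjusted p = 0.05004, not past the threshold). Its part and that of the list in the differences of the 10 genes were not tested. Among markers of tissues that the 10 genes are known from, those of neurons and photoreceptors were mostly at background. Of 10 neuronal markers on the array 7 were on no array well above background, Syt1 and Map2 among them, and the 2 tested, Eno2 and Tubb3, differed by -0.22 ± 0.16 and -0.02 ± 0.19. Their summed level, relative to the 75th percentile, was 0.530 to 0.704 in vehicle and 0.492 to 0.565 with TBBC. Of 11 photoreceptor markers 7 were not, Arr3 and Sag among them, and the summed level was 1.03 to 1.58 in vehicle and 1.1 to 1.30 with TBBC (Gnat1 -0.08 ± 0.31, Gnat2 -0.07 ± 0.45). Of 9 markers of trophoblast and pituitary 4 were not, and the sum was 2.44 to 2.54 and 2.62 to 3.04 (Pomc 0.12 ± 0.15, Ascl2 0.59 ± 0.18). In these lists 0 of 2, 0 of 3 and 0 of 5 tested members passed by limma (unadjusted p under 0.05 in 0, 0 and 1).

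Abcc9 is also a marker of pericytes and smooth muscle. Of 10 tested markers of mural cells, 1 rose, Rgs5 at 0.95 ± 0.12 (limma adjusted p = 0.0213), and 1 fell, Pdgfrb at -0.73 ± 0.14 (adjusted p = 0.0461). These 2 of 10 stand beside 3.08% of all features, and 4 of 10 had an unadjusted p under 0.05, beside 23.0% of all features. The calls were lost in 8 and 11 of 18 settings. The summed level of the list was 36.9 to 41.3 in vehicle and 33.3 to 34.9 with TBBC, and its median difference was -0.36. Cnn1 and Higd1b were not well above background on any array. The part of these cells in the Abcc9 difference was not tested. In the lists of stellate (10 tested), endothelial (8), Kupffer and myeloid (12) and lymphocyte markers (8), 0 passed by limma, with 0, 1, 0 and 2 at an unadjusted p under 0.05. Summed levels in vehicle and TBBC were 40.6 to 51.1 and 43.1 to 47.7 for stellate markers, and 27.1 to 47.7 and 34.4 to 39.3 for endothelial ones. For myeloid markers they were 110.8 to 228.8 and 118.8 to 249.7, and for lymphocyte markers 3.21 to 3.65 and 2.11 to 3.12. Examples were Ecm1 (-0.03 ± 0.13) and Col3a1 (0.11 ± 0.19), Kdr (-0.03 ± 0.22) and Lyve1 (0.74 ± 0.41), Clec4f (-0.02 ± 0.37) and C1qb (-0.07 ± 0.38), and Nkg7 (-0.29 ± 0.15) and Cd3d (-0.34 ± 0.12).

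Each array carried 61537 probes other than controls, of which 36919 to 39386 were well above background, and the 75th percentile of signal was 465.2 to 638.2. Pairs of arrays correlated at 0.986 to 0.990 within vehicle, at 0.989 to 0.991 within TBBC and at 0.975 to 0.984 across groups. Each of the 2 slides held 1 group only, so slide and treatment cannot be told apart. The labels speak of separate animals, and the number of arrays limits the precision.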

How the data were processed

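The deposited scanner files hold spot intensity on a linear scale, extracted by the authors with Agilent Feature Extraction 10.7.1.1 per the file headers (10.7 per the submitters' processing notes), background subtracted, with flags for spots well above background, saturated or outlying. The deposited value table holds the same intensity divided by 1 constant per array (column medians 0.1012, 0.1077, 0.1033, 0.0977, 0.0972 and 0.0974), linear and not centred; it served as an alternative. The array design is of build rn4, per the file headers.

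Controls and 25 outlier probes were left out. Probes were named through unversioned RefSeq accessions in the GRCr8 table (28206 of 61537 probes, 45.8%). A named gene was its retained probe with the highest mean, giving 29326 features. The comparison of the groups used limma 3.58.1 under R 4.3.3 (lmFit, eBayes, two-sided, no covariate, Benjamini-Hochberg over all features, threshold 0.05). The script was tested on simulated data. SE is the moderated standard error.

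The 10 genes, the lists, the motifs and the tests were chosen with earlier results of these data known. Named besides the 10 were, of each list of relatives, up to 4 members past the threshold or else the 2 brightest, up to 2 per marker list, up to 8 called neighbours and the nearest gene by profile; other genes named were chosen after their values were seen. The nearest gene of Prl3d4, Mmd2 and Cngb3 and some list members are not reported here. Replicate numbers did not pair the animals: deviations of same-numbered arrays correlated at 0.00351, -0.0216 and 0.144. Alternatives were quantile, median and spike-in scaling, normexp (offset 50) on median signals, the value table, 2 other filters, gene means, single probes, trended robust eBayes, array weights, the replicate block and leaving out each array.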

Additional observations from a re-analysis of the deposited data

How the results depend on the processing

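The 10 genes stayed lower with TBBC in all 130 recomputed values of their brightest probes, 123 of them within 1 SD between replicates. Nothing is read from this agreement, since the genes were picked on this difference. The replicate block cannot change a difference of group means. The value table holds the same intensity divided by 1 constant per array. At the main setting 9 of 10 were at least 2-fold lower without overlap, and 6 to 10 were over the alternatives. The count was 6 where a probe had to be above background on each of the 6 arrays. Normexp moved Cib2, Prl3d4, Slc29a4, Mmd2, Cngb3 and St8sia1 nearer to 0, and spike-in scaling moved Abcc9 to -0.72. Spike-in scaling shifted the median of all features from -0.06 to 0.16, no filter to -0.12.

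Features past the threshold numbered 902, against 1589 with normexp, 194 without a filter on dim probes, 211 with the replicate block and 120 to 355 with an array left out. Relatives past it numbered 3, against 5 with normexp, 6 with trended robust eBayes, 5 with array weights and 1 to 4 with an array left out (1 without vehicle replicate 1 or 2 or TBBC replicate 2). Neighbours numbered 0, against 1 with quantile normalization (Slc16a13), 2 with normexp (Cul5, Mboat1), 2 with trended robust eBayes and 2 with array weights (both Mboat1, Slc16a13), and 0 to 1 with an array left out (Slc35f2 without TBBC replicate 1). With the replicate block 3 relatives and 0 neighbours passed. The causes were not tested. Dim TBBC signals limit Mmd2, Cngb3 and St8sia1 to bounds.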
